A study of Mus musculus with 34 samples.

Results

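Transcripts of 9 genes that mark bile ducts, liver progenitor cells or the fetal liver were followed in mouse liver before and after partial hepatectomy (PHx). The genes were *Spp1*, *Sox9*, *Krt7*, *Krt8*, *Krt18*, *Krt19*, *Epcam*, *Cd24a* and *Afp*, chosen by name. All 9 were found among the 78298 genes of the table, and all 9 were among the 14980 genes with enough counts to be tested. The animals were male mice of C57/Bl6 background aged 8 to 12 weeks. In SIRTintKO mice, Cre driven by the Villin promoter removes floxed exon 4 of *Sirt1* in the gut epithelium. The controls, called WT, carry the same floxed *Sirt1* alleles without Cre, so neither genotype is free of engineered alleles. Livers were taken untreated (0 hours; 6 WT and 6 SIRTintKO), 6 hours after removal of 70% of the liver (6 WT and 5 SIRTintKO) or 24 hours after it (4 WT and 7 SIRTintKO). These group sizes follow the labels, and those in the study's own text differ for some groups, the WT livers at 24 hours among them. The question was whether the biliary, progenitor and fetal markers changed after PHx, and whether they did so differently when SIRT1 was absent from the intestine.

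Bile ducts are lined by cholangiocytes, which carry the keratins KRT7 and KRT19, the adhesion molecule EPCAM and the transcription factor SOX9. When hepatocytes cannot divide, ductal or progenitor cells with these markers can expand, and hepatocytes can themselves take on some of them. KRT8 and KRT18 form the keratin filaments of hepatocytes and duct cells alike. Alpha-fetoprotein (*Afp*) is a serum protein of the fetal liver that is shut down after birth. Osteopontin (*Spp1*) is also made by macrophages, and *Cd24a* by neutrophils and immature B cells.

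Each liver gave 1 library of 14892122 to 23480492 counts. Levels are counts scaled to library size (CPM), not by gene length, so they are compared between livers and not between genes. A gene was called changed at a Benjamini-Hochberg adjusted p under 0.05 over all genes tested and an absolute log2 fold change over 1, with edgeR's quasi-likelihood test. The p-values rest on a spread between livers that was estimated over all 6 groups together, not on the groups compared alone. The groups differed in spread. *Krt8*, for 1, averaged 206.5 CPM ± 33.8 (SD, n = 6) in untreated WT livers and 1018 ± 863 (n = 4) in WT livers at 24 hours. The whole tissue was sequenced, so fewer cells of a type and less RNA per cell cannot be told apart. The tissue matched its label, since 8 hepatocyte genes summed to 37030 to 92680 CPM in every liver. *Sirt1* itself gives no check of the intestinal deletion. It averaged 11.8 CPM ± 2.59 (SD, n = 6) in WT and 11.6 ± 2.50 (n = 6) in SIRTintKO livers at 0 hours, and 13.6 ± 6.42 (n = 4) and 8.66 ± 2.26 (n = 7) at 24 hours. *Vil1*, whose promoter drives the Cre and which duct cells can also use, stayed at 0 to 0.801 CPM in the livers of all 6 groups and was too low to test.

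At 24 hours the WT livers did not form 1 group. On the first principal component of all tested genes, which holds 40.7% of the variance, WT replicates 1 and 2 lay at 86.2 and 95.9, while replicates 3 and 4 lay at -8.0 and -17.6. Of the SIRTintKO livers at 24 hours, 6 lay between 49.6 and 80.3 and replicate 5 lay at 8.1. At 0 hours all 12 livers lay between -78.2 and -51.0. Results of the 9 markers at 24 hours that rest on these WT livers are therefore also given without either pair. So are the differences of other genes called between the genotypes at 24 hours.

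The upstream sequences of 4 members are shown because *Krt8* and *Krt18* moved together in these livers, and because *Afp* and *Spp1* were among the members that rose in both genotypes. RefSeq held an upstream sequence for 6 of the 9 genes, on build GRCm38.p6, whereas the counts were made on GRCm39. The 250 bases before the transcription start are printed 5′ to 3′ on the strand of the gene. They are chr15:102004343-102004592 on the minus strand for *Krt8*, and chr15:102027966-102028215, chr5:90490464-90490713 and chr5:104434861-104435110 on the plus strand for *Krt18*, *Afp* and *Spp1*. Capitals mark matches to any of 9 short motifs searched on both strands.
Krt8: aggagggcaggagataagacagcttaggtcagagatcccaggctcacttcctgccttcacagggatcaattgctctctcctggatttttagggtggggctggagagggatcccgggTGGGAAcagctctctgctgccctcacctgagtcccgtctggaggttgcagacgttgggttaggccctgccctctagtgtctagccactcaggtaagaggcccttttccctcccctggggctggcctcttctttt
Krt18: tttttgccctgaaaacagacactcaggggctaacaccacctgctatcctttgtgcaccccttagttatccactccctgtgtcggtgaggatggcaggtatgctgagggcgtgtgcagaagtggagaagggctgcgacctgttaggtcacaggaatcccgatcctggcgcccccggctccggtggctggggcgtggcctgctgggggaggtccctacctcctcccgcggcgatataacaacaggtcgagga
Afp: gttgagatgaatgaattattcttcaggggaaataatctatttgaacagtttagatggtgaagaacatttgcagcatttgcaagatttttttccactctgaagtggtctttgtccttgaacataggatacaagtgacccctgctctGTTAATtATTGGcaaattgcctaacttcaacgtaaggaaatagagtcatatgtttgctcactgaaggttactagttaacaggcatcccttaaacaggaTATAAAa
Spp1: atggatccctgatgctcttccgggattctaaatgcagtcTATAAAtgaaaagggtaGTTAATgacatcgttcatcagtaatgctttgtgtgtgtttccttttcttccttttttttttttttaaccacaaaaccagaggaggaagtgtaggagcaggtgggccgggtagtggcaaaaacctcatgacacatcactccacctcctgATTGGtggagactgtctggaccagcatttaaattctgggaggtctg
The motifs searched were the common promoter element TATAAA, the CCAAT element, the GC-rich element GGGCGG, the HNF1 half-site GTTAAT, the AP-1 site TGANTCA, the TEAD site GGAATG, the RBPJ site TGGGAA, the nuclear receptor half-site AAGGTCA and the SOX site AACAAT. *Krt8* and *Krt18* shared no match. They lie on chromosome 15 with starts 23874 bases apart and point away from each other, with 2 other listed genes starting between them. The *Krt8* window held 1 RBPJ motif, found in 21.6% of 32851 upstream windows of this length, and the *Krt18* window held none of the 9. The *Afp* window held the HNF1 half-site (6.43% of windows), the CCAAT element (33.8%) on the opposite strand right beside it, and TATAAA (12.4%) next to the start. The printed *Spp1* window held the same 3 motifs in another arrangement, with TATAAA at 211, the HNF1 half-site at 194 and the CCAAT element at 46 bases before the start. A second listed *Spp1* start, with the window chr5:104435942-104436191, is not printed and held none of the 9 motifs. No match in the 4 printed windows overlapped another, and a match is a run of letters, not a shown binding site. *Afp* lies on chromosome 5 between *Alb* and *Afm*, genes of the same serum protein family.

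In untreated livers no marker was called different between the genotypes. The log2 differences of the 9 members, SIRTintKO against WT, lay between -0.32 and 0.34 with a median of 0.11, beside -0.01 for all genes tested, and 0 members were called, beside 0% of all genes. None of the 9 reached an unadjusted p under 0.05 with edgeR, beside 161 of 14980 genes, and DESeq2 called 0 of the 9. All 9 pairs of groups overlapped. The 95% interval of the difference was -0.81 to 0.68 for *Krt8*, -0.81 to 1.33 for *Krt19* and -0.82 to 0.97 for *Afp*, so differences of these sizes were not detectable.

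**Figure D1:**
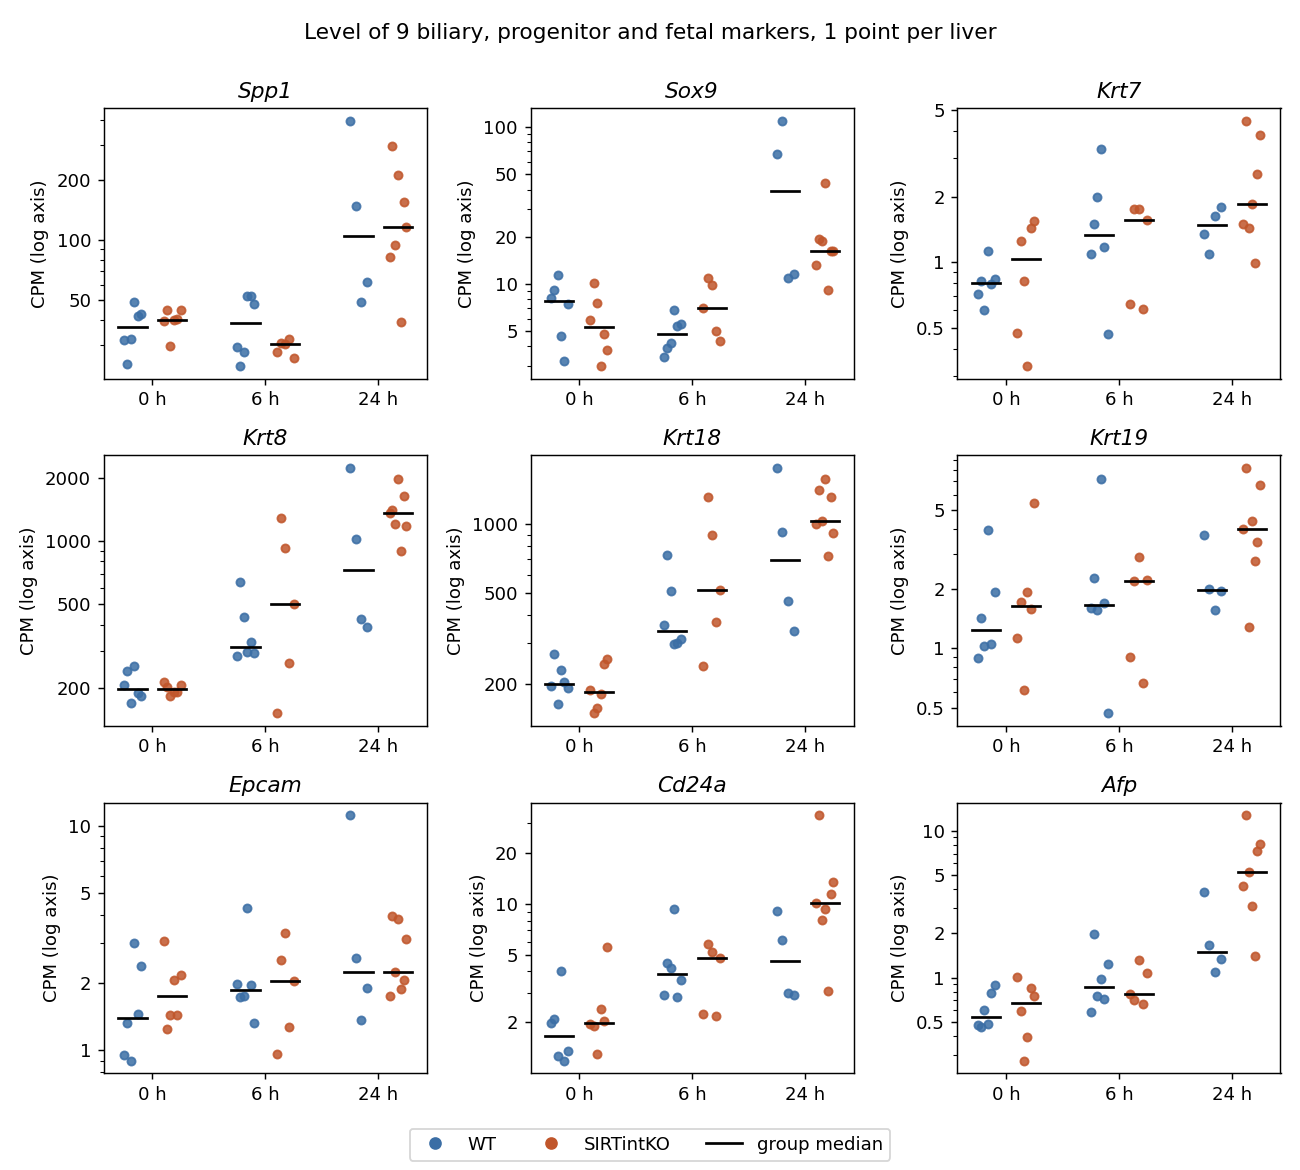
Level of each marker in CPM (log axis) in WT (blue) and SIRTintKO (orange) livers at 0, 6 and 24 hours, 1 point per liver, with a black line at the group median. Krt8, Krt18 and Afp at 24 hours lie above every untreated liver in both genotypes, while Krt19 in the WT livers at 24 hours stays within the untreated range.

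Of the keratin pair of hepatocytes and duct cells, *Krt18* was called higher in both genotypes by 6 hours and *Krt8* in SIRTintKO livers. *Krt8* lay between 169 and 254 CPM in WT livers at 0 hours (median 197) and between 284 and 641 CPM at 6 hours (median 313). In SIRTintKO livers it lay between 183 and 213 CPM at 0 hours (median 196), and at 151, 1283, 931, 263 and 500 CPM in replicates 1 to 5 at 6 hours. All 6 WT livers at 6 hours were above every untreated liver, while the SIRTintKO livers ranged from below the untreated level to far above it. *Krt18* behaved alike. It rose from 163 to 270 CPM in untreated WT livers (median 200) to 298 to 730 CPM at 6 hours (median 339). In SIRTintKO livers it went from 148 to 257 CPM (median 183) to 238, 1309, 892, 371 and 513 CPM. The same SIRTintKO livers, replicates 2 and 3, were highest for both keratins.

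At 6 hours in SIRTintKO livers, *Krt8* (log2 fold change 1.66, SE 0.388, adjusted p = 0.00109) and *Krt18* (1.77, SE 0.356, adjusted p = 0.000245) were called higher, 2 of 9 members beside 7.86% of all genes. In WT livers *Krt18* (1.01, SE 0.339, adjusted p = 0.0190) and *Cd24a* (1.19, SE 0.452, adjusted p = 0.0373) were called higher, also 2 of 9, beside 7.17% of all genes. *Krt8* was not called there, although its groups did not overlap. Both WT calls at 6 hours sat near the thresholds. *Cd24a* was lost on leaving out any of WT replicates 1, 2, 3, 5 and 6 at 0 hours or 2, 3 and 4 at 6 hours (log2 fold change 0.83 without WT 6-hour replicate 4), and *Krt18* on leaving out WT 0-hour replicate 1, 3 or 6 or 6-hour replicate 2 or 3 (0.76 without WT 6-hour replicate 2). No member was called lower in either genotype. Between the genotypes at 6 hours, 0 of 9 members and 0% of all genes were called. With edgeR 0 members had an unadjusted p under 0.05, beside 976 of 14980 genes. The difference of the changes from 0 hours, the interaction, likewise called 0 members and 0% of all genes at 6 hours, with log2 values between -0.75 and 0.93. DESeq2 called 0 members in both of these comparisons.

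By 24 hours both keratins were several times above the untreated level. *Krt8* stood at 2237, 1021, 427 and 387 CPM in WT replicates 1 to 4, and between 898 and 1973 CPM in the 7 SIRTintKO livers (median 1366). All 11 livers lay above every untreated one, but WT replicates 3 and 4 lay below every SIRTintKO liver. *Krt18* stood at 1766, 926, 459 and 340 CPM in the WT livers and between 725 and 1569 CPM in SIRTintKO livers (median 1029). Against 0 hours, *Krt8* rose by 2.30 on the log2 scale (SE 0.409, adjusted p = 9.234e-05) in WT and by 2.81 (SE 0.385, adjusted p = 9.143e-07) in SIRTintKO livers. *Krt18* rose by 2.07 (SE 0.373, adjusted p = 0.000111) and 2.54 (SE 0.349, adjusted p = 9.17e-07).

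*Krt8* and *Krt18* went up and down together. Across all 34 livers the log2 levels of *Krt8* and *Krt18* had a Pearson correlation of 0.98, and 0.95 after the group means were removed. These points share their libraries and depth, so the values describe the livers and carry no p. The ratio of *Krt18* to *Krt8* CPM, which is not scaled for length, lay between 0.730 and 1.58 in the 34 livers, while *Krt8* itself spanned 151 to 2237 CPM. Its mean was 1.01 ± 0.087 (SD, n = 6) in WT livers at 0 hours and 0.912 ± 0.119 (n = 4) at 24 hours, and 0.991 ± 0.223 (n = 6) and 0.824 ± 0.087 (n = 7) in SIRTintKO livers. At 6 hours it was 1.10 ± 0.128 (n = 6) in WT and 1.20 ± 0.278 (n = 5) in SIRTintKO livers. After each other, the genes most like the pair among 13298 compared were *Plpp2* for both (0.96 with *Krt8*, 0.95 with *Krt18*), *Nrg1* for *Krt8* (0.96) and *Sptlc2* for *Krt18* (0.95).

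**Figure D2:**
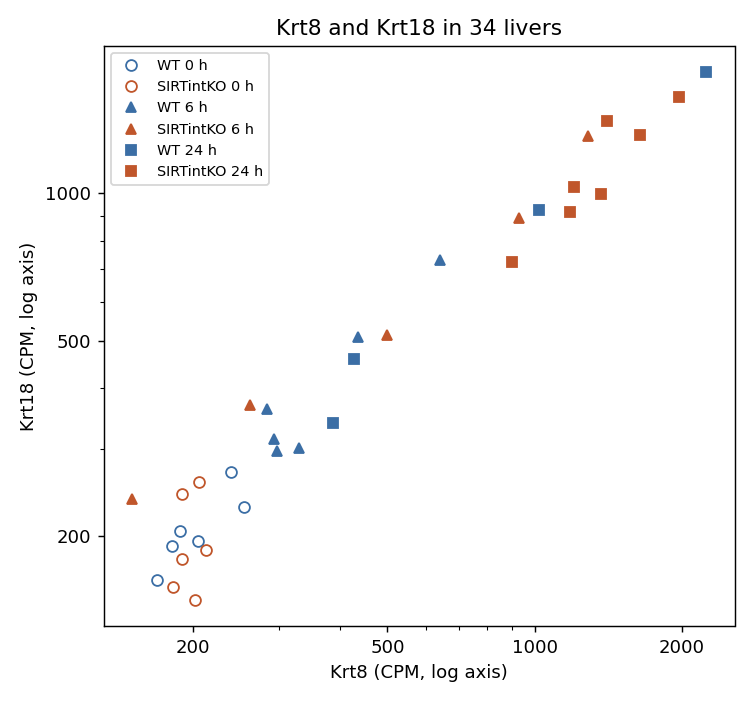
Krt18 against Krt8 (CPM, log axes) in all 34 livers, with open circles for 0 hours, triangles for 6 hours and squares for 24 hours, WT in blue and SIRTintKO in orange. The livers fall along 1 line from about the untreated level to WT replicate 1 at 24 hours (2237 and 1766 CPM), and the ratio stays between 0.730 and 1.58.

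Of 11 tested partners of the keratin filaments, 3 were called higher and 2 lower in WT livers at 24 hours against 0 hours, and 5 higher and none lower in SIRTintKO livers. The shares of all genes called higher were 8.32% and 11.9%. Plectin (*Plec*), which links keratin to other filaments and to junctions, rose in both genotypes (1.42 and 1.20 on the log2 scale, adjusted p = 1.111e-05 and 7.256e-06), as did epiplakin (*Eppk1*), which binds keratin filaments (2.10 in each, adjusted p = 7.953e-05 and 8.286e-06). The desmosomal cadherin *Dsg2* was called lower in WT livers (-1.19, adjusted p = 8.984e-05) and was at -0.89 (adjusted p = 0.00011) in SIRTintKO livers, short of the fold threshold. The median log2 fold change of this list was 0.47 in WT and 0.81 in SIRTintKO livers, beside 0.02 and 0.04 for all genes.

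The secreted and nuclear markers of ducts and progenitors, *Spp1* and *Sox9*, stayed at their untreated level at 6 hours and rose by 24 hours. *Spp1* lay between 23.9 and 49.1 CPM in untreated WT livers (median 36.9) and between 29.6 and 45.0 CPM in untreated SIRTintKO livers (median 40.1). At 6 hours it lay between 23.3 and 52.8 CPM in WT livers (median 38.6) and at 27.4, 30.4, 30.1, 32.2 and 25.6 CPM in SIRTintKO livers. At 24 hours it stood at 399, 148, 49.1 and 61.5 CPM in WT replicates 1 to 4 and between 39.0 and 298 CPM in SIRTintKO livers (median 116). The highest untreated liver was passed by 3 of 4 WT and 6 of 7 SIRTintKO livers. *Spp1* rose by 2.16 on the log2 scale in WT (SE 0.420, adjusted p = 0.000254) and by 1.84 in SIRTintKO livers (SE 0.381, adjusted p = 0.000208) against 0 hours. The 2 medians at 24 hours were the highest of the 6 groups and did not differ beyond the spread, and the 4 groups before 24 hours overlapped one another.

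*Sox9*, the transcription factor of duct and progenitor cells, spread most widely of the 9 markers among WT livers at 24 hours. It lay between 3.23 and 11.4 CPM in untreated WT livers (median 7.77) and between 2.98 and 10.2 CPM in untreated SIRTintKO livers (median 5.32). At 6 hours the range was 3.43 to 6.87 CPM in WT livers (median 4.80), and the SIRTintKO livers had 6.99, 10.99, 9.81, 5.04 and 4.31 CPM. At 24 hours WT replicates 1 and 2 reached 67.0 and 110 CPM, while replicates 3 and 4 stayed at 10.9 and 11.7 CPM, close to the highest untreated liver. The SIRTintKO livers lay between 9.15 and 44.1 CPM (median 16.3), below WT replicates 1 and 2 without exception. *Sox9* rose by 2.77 on the log2 scale in WT (SE 0.477, adjusted p = 6.755e-05) and by 1.74 in SIRTintKO livers (SE 0.433, adjusted p = 0.00133). The *Sox9* pattern was most like that of *Borcs6* (Pearson 0.89), *Blcap* (0.88) and *Lratd1* (0.88) over the 34 livers. Of all pairs of members, *Sox9* was least like *Krt19* (0.31) and *Krt7* (0.32), and with the group means removed these values were 0.06 and 0.05. *Spp1* was most like *Pgd* (0.89), *Rhog* (0.88) and *Nos2* (0.87).

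Receptors for osteopontin were tested in full, 9 of 9. None was called higher in WT livers at 24 hours against 0 hours, where the integrin subunit *Itga8* was called lower. In SIRTintKO livers *Cd44*, a receptor for osteopontin and hyaluronan, and the integrin subunit *Itgav* were called higher (1.21 and 1.03 on the log2 scale, adjusted p = 0.000996 and 7.465e-05). *Itgav* stood at 1.00 (adjusted p = 0.000852) in WT livers, just short of the fold threshold. Medians of the list were 0.22 and 0.41, beside 0.02 and 0.04 for all genes.

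The narrow markers of mature ducts, *Krt7*, *Krt19* and *Epcam*, were low and had the smallest changes of the 9 at 24 against 0 hours in both genotypes. *Krt7* lay between 0.601 and 1.13 CPM in untreated WT livers and between 0.331 and 1.55 CPM in untreated SIRTintKO livers. It stood at 1.35, 1.09, 1.62 and 1.79 CPM in WT livers at 24 hours and between 0.985 and 4.48 CPM in SIRTintKO livers (median 1.84). It was called higher at 24 hours in SIRTintKO livers (1.27, SE 0.390, adjusted p = 0.00749) and not in WT livers (0.84, SE 0.447, adjusted p = 0.146), and its groups overlapped in both. *Krt7* rested on 5 to 117 counts in a library, so its levels are coarse.

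*Krt19* was not called in any comparison. It lay between 0.894 and 3.98 CPM in untreated WT livers and between 0.614 and 5.46 CPM in untreated SIRTintKO livers. At 24 hours the WT livers had 3.75, 2.00, 1.57 and 1.94 CPM, all within the untreated range, and the SIRTintKO livers had 1.28 to 8.22 CPM (median 4.03). The log2 change from 0 hours was 0.42 (SE 0.576, adjusted p = 0.603) in WT and 1.08 (SE 0.498, adjusted p = 0.0693) in SIRTintKO livers. With DESeq2 the second was called (1.10, adjusted p = 0.0478). It was also called with edgeR on leaving out SIRTintKO 0-hour replicate 6 (1.66) or 24-hour replicate 3 (1.25), and the adjusted p over all alternatives ran from 0.00852 to 0.157.

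*Epcam* lay between 0.901 and 3.02 CPM in untreated WT livers and between 1.25 and 3.08 CPM in untreated SIRTintKO livers. At 24 hours WT replicate 1 had 11.2 CPM and the other WT livers 2.57, 1.36 and 1.89 CPM, whereas the SIRTintKO livers had 1.75 to 3.96 CPM (median 2.23). The WT call at 24 hours (1.34, SE 0.451, adjusted p = 0.0216) rested on replicate 1, without which the change was 0.22 (adjusted p = 0.730). It was also lost on leaving out WT 0-hour replicate 3 (1.21, adjusted p = 0.0501). In SIRTintKO livers the change was 0.49 (SE 0.400, adjusted p = 0.312).

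These low duct markers also varied from liver to liver before and after surgery. WT replicate 4 at 6 hours had the highest *Krt7* (3.31 CPM), *Krt19* (7.18 CPM), *Epcam* (4.29 CPM) and *Cd24a* (9.33 CPM) of its group, but the lowest *Krt18* (298 CPM). WT replicate 4 at 0 hours was likewise highest for all 4. With group means removed, *Krt19* correlated with *Cd24a* at 0.75, with *Krt7* at 0.72 and with *Epcam* at 0.66 over 34 livers. The genes most like *Krt7* and *Krt19* over all livers were the epithelial protease *St14* (0.84 and 0.79), then *Anxa3* (0.80) and *Bicc1* (0.78) for *Krt7*, and the tight junction gene *Cldn7* (0.78) for *Krt19*. For *Epcam* they were *Pak6* (0.75), *Kdm1a* (0.73) and *Ddr1* (0.71).

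*Cd24a*, a small surface glycoprotein of progenitors and several blood cells, lay between 1.19 and 4.04 CPM in untreated WT livers (median 1.66) and between 1.30 and 5.59 CPM in untreated SIRTintKO livers (median 1.99). At 6 hours it lay between 2.81 and 9.33 CPM in WT livers (median 3.88), and at 2.25, 5.85, 5.22, 2.19 and 4.79 CPM in SIRTintKO livers. At 24 hours the WT livers had 9.10, 6.17, 2.99 and 2.89 CPM, and the SIRTintKO livers had 3.05 to 33.8 CPM (median 10.2). The highest untreated liver was passed by 2 of 4 WT and 6 of 7 SIRTintKO livers. *Cd24a* rose by 1.40 on the log2 scale in WT (SE 0.488, adjusted p = 0.0265) and by 2.32 in SIRTintKO livers (SE 0.441, adjusted p = 7.499e-05). The WT call was lost without WT 0-hour replicate 3, 5 or 6 or 24-hour replicate 1 or 2, with log2 changes of 1.29, 1.29, 1.32, 1.02 and 1.31.

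Neutrophil and monocyte markers at 24 hours were highest in the 1 liver where *Cd24a* was highest. They had the same order as *Cd24a* among the WT livers. Among the SIRTintKO livers the highest and lowest were the same, and the order between them differed. SIRTintKO replicate 2 at 24 hours, the highest for *Cd24a*, had a summed level of 974 CPM over 8 neutrophil and monocyte genes, beside 25.6 to 218 CPM in the other 6 SIRTintKO livers and 9.16 to 117 CPM in the 4 WT livers. SIRTintKO replicate 7, the next highest for *Cd24a* (13.5 CPM), had a sum of 67.0 CPM. Replicate 3, with a sum of 218 CPM, had 8.03 CPM of *Cd24a*. Replicate 5 was the lowest SIRTintKO liver for both, with a sum of 25.6 CPM and 3.05 CPM of *Cd24a*. In WT replicates 1 to 4 the sums were 117, 93.3, 16.1 and 9.16 CPM, beside the *Cd24a* levels of 9.10, 6.17, 2.99 and 2.89 CPM. Of the neutrophil and monocyte genes, 8 of 8 were called higher at 24 hours against 0 hours in SIRTintKO livers, and 4 of 8 in WT livers. The shares of all genes called higher were 11.9% and 8.32%. Without SIRTintKO replicates 2 and 5, *Cd24a* rose by 2.05 (adjusted p = 6.366e-05). B cells are another source of *Cd24a*, and 1 of 4 B cell genes was tested. Their sum fell from 0.920 to 4.33 CPM untreated to 0.163 to 0.602 CPM at 24 hours in SIRTintKO livers. In WT livers it fell from 1.37 to 1.78 CPM to 0.229 to 1.05 CPM. At 6 hours it already averaged 0.259 CPM in WT and 0.475 CPM in SIRTintKO livers. Among 9 macrophage genes, which share cells with *Spp1*, 7 were called higher and none lower in SIRTintKO livers, and 3 higher and 2 lower in WT livers. The same shares of all genes called higher apply here. The macrophage list summed to 59.5 to 161 CPM in SIRTintKO and 50.6 to 115 CPM in WT livers at 24 hours. The part of these cells in the changes of *Cd24a* and *Spp1* was not tested. The genes most like *Cd24a* were *Capg*, *S100a11* and *Slc25a24* (0.89 each).

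*Afp*, the fetal serum protein, showed the largest rise of the 9 members in SIRTintKO livers. It was low in untreated livers, with 0.460 to 0.898 CPM in WT (median 0.542) and 0.273 to 1.01 CPM in SIRTintKO livers (median 0.668). At 6 hours it lay between 0.583 and 1.97 CPM in WT livers (median 0.865) and at 0.770, 0.704, 1.32, 0.668 and 1.08 CPM in SIRTintKO livers. At 24 hours the WT livers had 3.81, 1.66, 1.10 and 1.34 CPM, and SIRTintKO replicates 1 to 7 had 4.21, 12.8, 5.21, 3.09, 1.41, 7.32 and 8.15 CPM. All 11 livers at 24 hours were above the highest untreated liver. *Afp* rose by 1.67 on the log2 scale in WT (SE 0.448, adjusted p = 0.00484) and by 3.20 in SIRTintKO livers (SE 0.411, adjusted p = 3.344e-07), and by 2.72 in SIRTintKO livers from 6 to 24 hours (SE 0.426, adjusted p = 3.305e-05). The WT call was lost without WT 24-hour replicate 1 (1.15, adjusted p = 0.0697). The counts behind these values were 4 to 249 per library.

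The neighbours of *Afp* did not follow it. *Alb*, the main serum protein of adult hepatocytes, was called lower in WT livers at 24 hours (-1.22, SE 0.240, adjusted p = 0.000286) and stood at -0.36 (adjusted p = 0.125) in SIRTintKO livers. *Afm*, which encodes a vitamin E carrier, was called lower in both (-1.22 and -1.61, adjusted p = 0.00172 and 3.265e-06). Of 12 genes at or acting on this locus, none was called higher at 24 hours in either genotype, 2 were called lower in WT and 4 in SIRTintKO livers. Of all 14980 genes, 1108 and 1656 were called lower. *Zbtb20* and *Zhx2*, known repressors of *Afp* after birth, were at -0.45 and 0.02 in WT and at -0.53 and 0.07 in SIRTintKO livers, and neither passed both thresholds. *Cebpa*, a hepatocyte transcription factor, was called lower in SIRTintKO livers (-1.91, adjusted p = 2.232e-06) and stood at -0.28 (adjusted p = 0.528) in WT livers. Between genotypes at 24 hours *Cebpa* was lower in SIRTintKO livers (-1.37, SE 0.3015, adjusted p = 0.0103), also in all 11 fits without 1 liver. It was called without WT replicates 1 and 2 (-1.715), and not called without replicates 3 and 4 (-0.946). The genes most like *Afp* were *Anxa5* (0.93), *Cd151* (0.91) and *Pold4* (0.91).

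Counted together, 7 of 9 members were called higher at 24 hours against 0 hours in WT livers, all but *Krt7* and *Krt19*, beside 8.32% of all genes called higher. In SIRTintKO livers 7 of 9 were called higher, all but *Krt19* and *Epcam*, beside 11.9%. The medians of the 9 were 1.67 and 1.84 on the log2 scale, beside 0.02 and 0.04 for all genes. From 6 to 24 hours, 4 members rose in WT livers (*Spp1*, *Sox9*, *Krt8* and *Krt18*), beside 4.44% of all genes. In SIRTintKO livers 5 rose (*Spp1*, *Sox9*, *Krt8*, *Cd24a* and *Afp*), beside 6.7%. Of the WT calls from 6 to 24 hours, *Krt8* (log2 fold change 1.42) was lost without WT 24-hour replicate 1 (0.72). *Krt18* (1.06) was lost without that liver (0.48), WT 24-hour replicate 2 (1.04) or WT 6-hour replicate 1, 4, 5 or 6 (0.98 to 1.04). Of the SIRTintKO calls, *Krt8* (1.14) was lost without 6-hour replicate 1, 4 or 5 (0.91 to 1.09), and *Sox9* (1.40) without 6-hour replicate 4 or 5 or 24-hour replicate 4 (1.06 to 1.30). No member was called lower in any comparison. Both comparisons of a genotype with its 0-hour livers share those livers, and the 0-hour libraries carry a numbering of their own, so a difference in handling and the effect of PHx cannot be told apart.

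**Figure D3:**
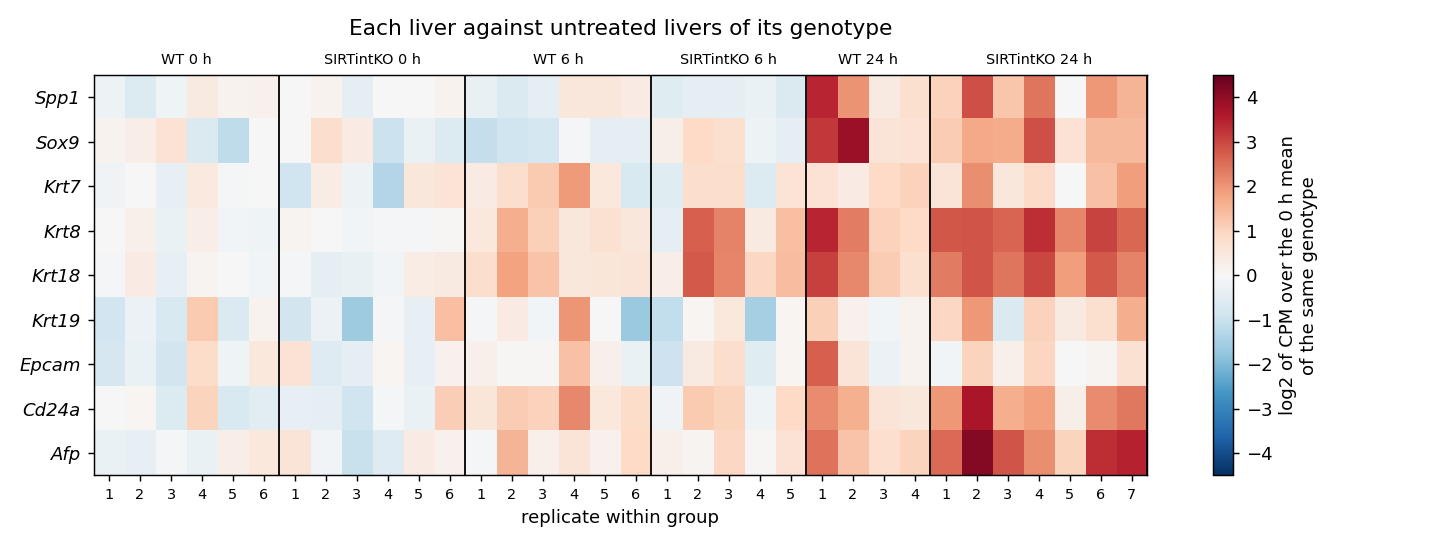
Log2 of each liver's CPM over the mean of the untreated livers of its genotype, with members in rows and livers in columns, red above and blue below. At 24 hours, WT replicates 1 and 2 and 6 of the 7 SIRTintKO livers are red for most members, while WT replicates 3 and 4 and SIRTintKO replicate 5 are paler.

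The WT rise was largest in replicates 1 and 2. WT replicate 1 was the highest of its group for 7 of the 9 members, and replicates 3 and 4 were lowest for 5 and 3. Without replicates 1 and 2, 0 members were called against 0 hours and 2 had an unadjusted p under 0.05, by edgeR with 2 WT livers left at that time. The log2 changes were then 0.59 for *Spp1*, 0.62 for *Sox9*, 0.98 for *Krt8*, 0.94 for *Krt18*, 0.55 for *Cd24a* and 0.99 for *Afp*, with adjusted p from 0.164 to 0.681. Under this setting 3.3% of all genes were called, 1.5% higher. Without replicates 3 and 4 the count was 7, and 30.6% of all genes were called, 14% higher. In SIRTintKO livers replicate 2 was highest for 6 members and replicate 5 lowest for 7. The count stayed at 7 without both, and 23.7% of all genes were called, 12% higher.

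**Figure D4:**
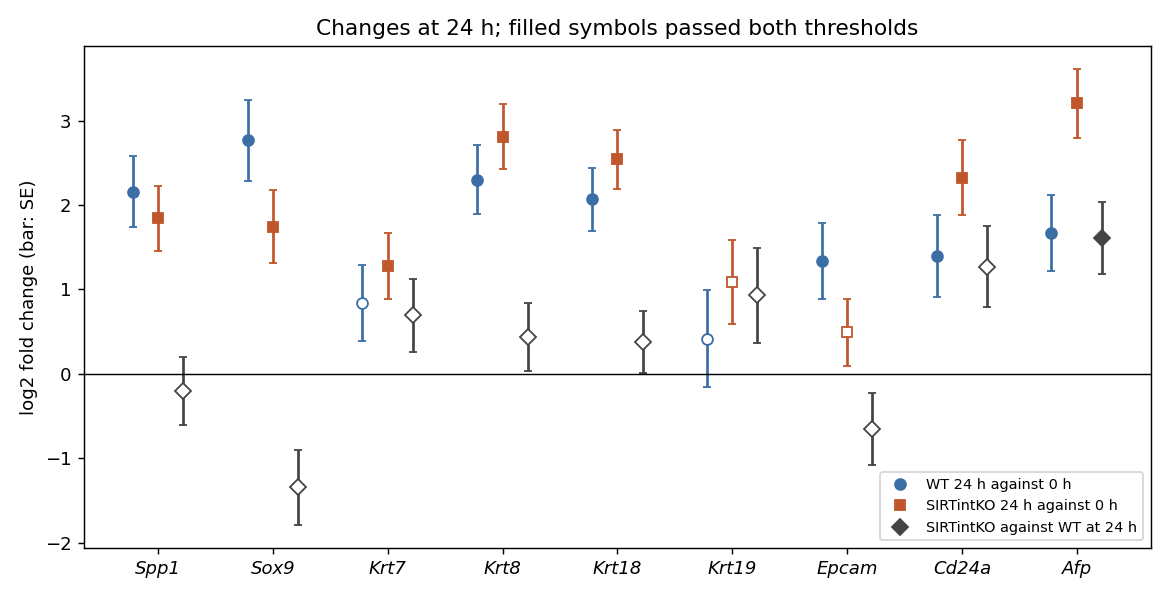
Log2 fold change of each member with its SE for WT at 24 against 0 hours (circles), SIRTintKO at 24 against 0 hours (squares) and SIRTintKO against WT at 24 hours (diamonds), filled where both thresholds were passed. Afp is the only member with a filled diamond, at 1.61.

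Between the genotypes at 24 hours, *Afp* was the only member called, 1 of 9 beside 2.68% of all genes. It was higher in SIRTintKO livers by 1.61 on the log2 scale (SE 0.429, 95% interval 0.74 to 2.48, adjusted p = 0.0254), with 6.03 CPM ± 3.80 (SD, n = 7) against 1.98 ± 1.24 (n = 4), and the groups overlapped. The call was lost on leaving out WT replicate 2, 3 or 4 or SIRTintKO replicate 2, with log2 differences of 1.53, 1.39, 1.46 and 1.31 and adjusted p of 0.06268, 0.06932, 0.06731 and 0.06352. A fit to the 2 groups alone gave 1.61 with an adjusted p of 0.282 and called 0 of all genes, and the adjusted p over all alternatives ran from 0.00357 to 0.282. The direction held in all of them, with log2 differences of 1.11 to 2.29. Without WT replicates 3 and 4 *Afp* was not called. The difference of the changes from 0 hours was 1.53 (SE 0.610, unadjusted p = 0.0171, adjusted p = 0.288) for *Afp*. For this interaction at 24 hours 0 members were called, beside 0.00668% of all genes, and DESeq2 also called 0 members. With edgeR 1 of the 9 members had an unadjusted p under 0.05, beside 1904 of 14980 genes.

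*Sox9* went the other way, with 19.6 CPM ± 11.3 (n = 7) in SIRTintKO against 49.9 ± 47.9 (n = 4) in WT livers. The log2 difference of -1.35 (SE 0.443, adjusted p = 0.0627) missed the threshold with edgeR and passed it with DESeq2 (-1.34, adjusted p = 0.0430), with an adjusted p of 0.000262 to 0.428 over all alternatives. It passed on leaving out WT replicate 3 or 4 or SIRTintKO replicate 4 (-1.72, -1.68 and -1.68). Without WT replicates 1 and 2 it turned to 0.80 (adjusted p = 0.236), so its direction rests on those livers. *Cd24a* was at 1.27 (SE 0.481, adjusted p = 0.105), and passed on leaving out SIRTintKO replicate 5 (1.44). The others were at -0.20 for *Spp1*, 0.69 for *Krt7*, 0.44 for *Krt8*, 0.38 for *Krt18*, 0.93 for *Krt19* and -0.65 for *Epcam*, with adjusted p from 0.322 to 0.802.

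**Figure D5:**
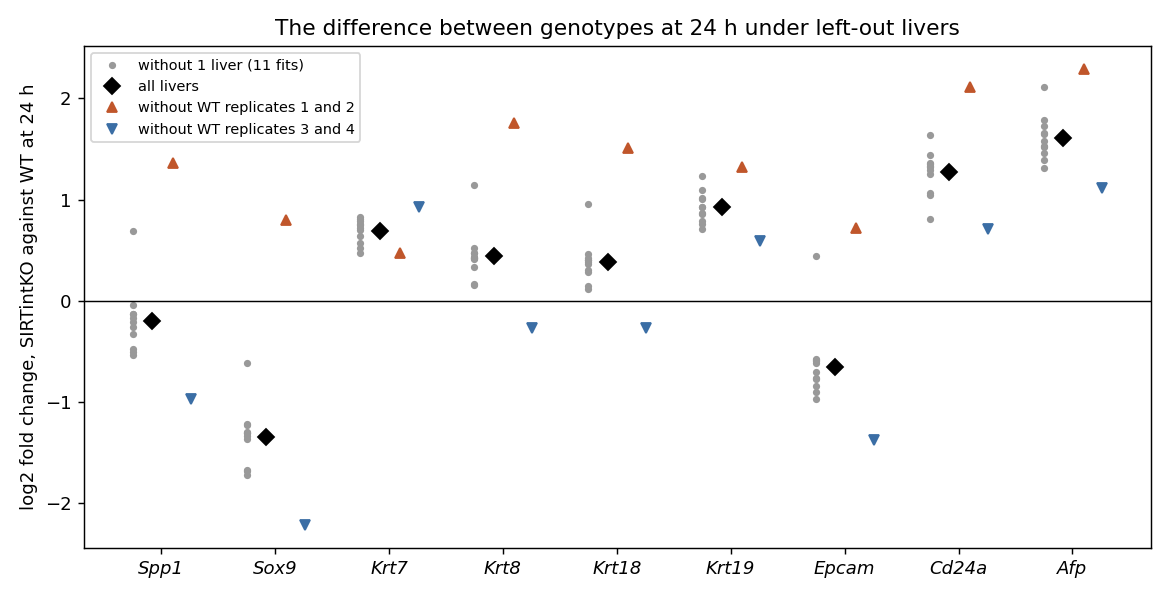
Log2 fold change of each member in SIRTintKO against WT livers at 24 hours with all livers (black diamonds), without 1 liver at a time (grey points), without WT replicates 1 and 2 (orange) and without WT replicates 3 and 4 (blue). Spp1, Sox9, Krt8, Krt18 and Epcam lie on opposite sides of 0 without either WT pair, while Krt7, Krt19, Cd24a and Afp stay above 0.

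Which WT livers are kept decided the direction of the genotype difference for 5 of the 9 members. Without WT replicates 1 and 2, 5 members were called higher in SIRTintKO livers, namely *Spp1* (1.365, adjusted p = 0.0333), *Krt8* (1.76), *Krt18* (1.51), *Cd24a* (2.11) and *Afp* (2.29), beside 9.22% of all genes called, 5.13% higher. Without WT replicates 3 and 4, 2 members were called lower, *Sox9* (-2.21, adjusted p = 0.000262) and *Epcam* (-1.37, adjusted p = 0.0306), and *Krt8* and *Krt18* were at -0.26 and -0.27, beside 8.3% of all genes called, 3.84% lower. *Afp*, called with all livers, was not called without replicates 3 and 4. These removals were chosen after the data were seen.

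Other markers of ducts had small median changes as a list, although several single genes were called. Of 23 cholangiocyte genes 19 were tested, and the chloride channel *Cftr* and the secretin receptor *Sctr*, which define secreting duct cells, stayed under the filter at means of 0.147 and 0.0548 CPM. At 24 hours against 0 hours, 5 of 19 were called higher and none lower in WT livers, beside 8.32% of all genes called higher. In SIRTintKO livers 7 of 19 were called higher and 1 lower, beside 11.9% of all genes called higher. The medians were 0.39 and 0.16, beside 0.02 and 0.04 for all genes. The list summed to 248 to 272 CPM in WT and 209 to 299 CPM in SIRTintKO livers at 24 hours, beside 192 to 267 CPM in untreated livers. The 3 tested genes with the highest level were *Atp1b1*, *Cdh1* and *Aqp1*. The adhesion gene *Cdh1* was called higher in WT livers (1.00, adjusted p = 0.00597) and stood at 0.69 (adjusted p = 0.0192) in SIRTintKO livers, and the sodium pump subunit *Atp1b1* was at 0.39 and -0.05 without passing. Between genotypes at 24 hours, the water channel *Aqp1* was higher in SIRTintKO livers (1.10, SE 0.242, adjusted p = 0.0103; 60.4 CPM ± 19.6 against 28.1 ± 10.7). *Onecut1*, a transcription factor of hepatocyte and duct fate, was lower (-2.44, SE 0.584, adjusted p = 0.0157; 1.87 CPM ± 1.73 against 10.2 ± 8.27). *Aqp1* was called without either WT pair (1.06 without replicates 1 and 2, 1.10 without 3 and 4), and lost without WT replicate 1 or SIRTintKO replicate 2. *Onecut1* was called without WT replicates 1 and 2 (-3.14), and lost without replicates 3 and 4 (-1.03) or replicate 3 alone.

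Of 13 progenitor genes 9 were tested. *Tnfrsf12a*, the receptor of the progenitor mitogen TWEAK, rose by 4.11 on the log2 scale in WT and 4.39 in SIRTintKO livers at 24 hours (adjusted p = 3.288e-06 and 1.672e-07), from 7.54 CPM ± 3.91 to 131 ± 123 and from 6.75 ± 1.77 to 141 ± 46.3. *Tnfrsf12a* was not called between the genotypes at 24 hours (0.11, adjusted p = 0.921). The progenitor list summed to 369.5, 361.5, 108.6 and 102.8 CPM in WT replicates 1 to 4. The *Tnfrsf12a* difference is thus an average over unlike WT livers and does not show equal levels. In all, 2 of the 9 were called higher in WT and 3 in SIRTintKO livers, with none and 1 (*Lgr5*) lower. The shares of all genes called higher were 8.32% and 11.9%. *Jag1*, a Notch ligand, was lower in SIRTintKO than in WT livers at 24 hours (-1.24, SE 0.262, adjusted p = 0.00874). *Fgfr2* (1.18, SE 0.292, adjusted p = 0.0186) and *Cd44* (1.12, SE 0.333, adjusted p = 0.0424) were higher. *Jag1* stood at -0.49 without WT replicates 1 and 2, where it was not called, and at -1.76 without 3 and 4. *Fgfr2* and *Cd44* were at 1.45 and 1.90 without WT replicates 1 and 2, and at 0.93 and 0.58, not called, without 3 and 4. *Jag1* and *Fgfr2* were lost without WT replicate 2, and *Cd44* without WT replicate 2, 3 or 4 or SIRTintKO replicate 2, 4, 6 or 7. *Notch2*, a Notch receptor, was at 0.22 (adjusted p = 0.429).

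Of 12 fetal liver genes other than *Afp*, 7 were tested, and the classical oncofetal genes *Igf2* and *H19* were at 0.489 and 0.221 CPM on average and were not called. *Hmga1*, a chromatin protein of growing cells, rose in both genotypes (2.09 and 2.87, adjusted p = 0.000275 and 6.087e-07), as did *Pkm*, the pyruvate kinase of fetal and proliferating tissue (1.76 and 1.96, adjusted p = 2.239e-05 and 3.76e-07). The hexokinase *Hk2* was called in SIRTintKO livers (1.24, adjusted p = 0.00975) and stood at 0.88 (adjusted p = 0.122) in WT livers. None of the 7 was called between genotypes at 24 hours. Of 10 genes of the YAP pathway, a growth pathway active in ducts, 2 were called higher and 1 lower in WT livers and 6 higher and none lower in SIRTintKO livers, and none between genotypes. Beside them, 8.32% of all genes were called higher in WT and 11.9% in SIRTintKO livers. The difference between the YAP counts was not tested.

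Markers of other cells that share these genes were followed too. Mesothelial cells carry the same keratins, and their 7-gene list summed to 0.971 to 6.92 CPM in WT and 1.61 to 9.27 CPM in SIRTintKO livers at 24 hours, with 2 of 5 tested genes called higher in SIRTintKO livers and none in WT livers. The shares of all genes called higher were 11.9% and 8.32%. Between genotypes at 24 hours, *Csf3r* (1.75) and *Ccr2* (1.59) of 8 neutrophil and monocyte genes, *Lgals3* (1.36) and *Mmp12* (2.10) of 9 macrophage genes and *Marco* (2.28) of 5 Kupffer cell genes were higher in SIRTintKO livers. The gut genes *Cdx1* and *Cdx2* were at 0 in every library, while *Fabp2*, which the liver also makes, was higher (1.46, adjusted p = 0.0280). Of these, *Csf3r* and *Marco* were called without either WT pair. *Ccr2* and *Lgals3* were not called without WT replicates 3 and 4 (1.18 and 0.92), nor *Mmp12* and *Fabp2* without replicates 1 and 2 (1.27 and 1.07). Leaving out 1 liver, *Marco* was lost without WT replicate 2, *Lgals3* without WT replicate 2, 3 or 4 or SIRTintKO replicate 2 or 6, *Mmp12* without WT replicate 1, 2 or 4 or SIRTintKO replicate 2, 6 or 7, and *Fabp2* without WT replicate 1 or 2 or SIRTintKO replicate 2. Over all lists 12 genes were called between genotypes at 24 hours, 5 to 12 of these on leaving out 1 liver and 0 in the fit to the 2 groups alone, with 1 direction for each gene throughout. None of 8 collagen and stellate cell genes, 6 erythroid genes, 1 B cell gene, 5 mesothelial genes and 8 hepatocyte genes tested was called between genotypes. Their part in the differences of the 9 members was not tested.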

How the data were processed

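Poly(A) RNA of whole mouse liver was sequenced from stranded libraries. Per the labels and methods, the authors aligned reads with STAR and estimated transcripts with Salmon in the nf-core pipeline (versions not given in the sources used here; build GRCm39 by the submitters' processing notes), and deposited expected counts per gene, without normalization. Of 35 columns, 1 matched no labelled sample and was not used. The 34 others were grouped by their labels. The table's symbols lack the letter x, so 1255 symbols were restored by gene identifier.

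Counts were rounded, filtered with filterByExpr (14980 genes), scaled by TMM and fitted with edgeR 4.0.16 in R 4.3.3, with 1 mean per genotype and time over all 34 libraries. DESeq2 1.42.0, which the authors used, was an alternative, beside other scalings, filters, a replicate block, fits to the groups compared and left-out libraries. Pearson correlations are of log2 CPM with a prior count of 2. The fits were also run on simulated counts with 1 spread for every gene and group, which cannot speak to the split WT livers at 24 hours. The members and gene lists were chosen with earlier results of these data known. Named were all members, the 3 genes most like each (1 is not reported here), *Sirt1*, *Vil1*, and from each list the 3 highest tested genes or those called between genotypes at 24 hours, and the others for their role or value, after the values were seen.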

Additional observations from a re-analysis of the deposited data

Results flagged for a closer look

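Of the 54 combinations of 9 markers and 6 groups, 11 held a liver that stood apart from the rest of its group by Dixon's gap criterion. Chance alone meets it in about 1 of 20 groups of independent, normally spread values. These were CPM without logarithm, of markers that correlate, so that rate does not carry over. The 11 cases fell on few livers. WT replicate 4 at 0 hours was highest for *Krt19* (3.98 CPM, next 1.92) and *Cd24a* (4.04 CPM, next 2.09). WT replicate 4 at 6 hours was highest for *Krt19* (7.18 CPM, next 2.27), *Epcam* (4.29 CPM, next 1.97) and *Cd24a* (9.33 CPM, next 4.49). SIRTintKO replicate 6 at 0 hours was highest for *Krt19* (5.46 CPM, next 1.92) and *Cd24a* (5.59 CPM, next 2.39). At 24 hours WT replicate 1 was highest for *Epcam* (11.2 CPM, next 2.57), SIRTintKO replicate 2 for *Cd24a* (33.8 CPM, next 13.5) and SIRTintKO replicate 4 for *Sox9* (44.1 CPM, next 19.4). One liver was low, SIRTintKO replicate 3 at 0 hours for *Spp1* (29.6 CPM, next 39.5).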

How the results depend on the processing

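Over 989 recomputed values of single members, 926 kept their direction and their side of the thresholds, 51 lost a call, 8 gained one and 4 turned sign. These do not include the fits without a pair of livers. Of 28 called values, 18 were kept in every one of these alternatives. Without WT replicates 1 and 2 at 24 hours 8 further values turned sign, and without replicates 3 and 4 it was 4. The counts that moved by over 1.5 times were these. For WT at 6 against 0 hours (2 members), upper-quartile scaling, a minimum of 10 counts in every library and the replicate block each gave 1, and leaving out 1 liver gave 0 to 3. For WT at 24 against 0 hours (7), leaving out 1 liver gave 4 to 7, and leaving out WT replicates 1 and 2 gave 0. For WT at 24 against 6 hours (4), the groups alone gave 2, leaving out 1 liver gave 2 to 5, and leaving out WT replicates 1 and 2 gave 0. For SIRTintKO at 24 against 6 hours (5), single livers gave 3 to 6. For SIRTintKO against WT at 24 hours (1), the minimum of 10 counts, under which *Afp* is not tested, the groups alone and the replicate block gave 0, DESeq2 gave 2, single livers 0 to 2, and leaving out WT replicates 1 and 2 or 3 and 4 gave 5 and 2. For the interaction at 24 hours (0), these last 2 gave 2 and 1. Beside what is named here, the cause was not tested.

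Signs turned when WT livers were left out. Without WT replicates 1 and 2 at 24 hours, *Epcam* was at -0.037 against 0 hours and *Krt18* at -0.069 against 6 hours. Against WT, SIRTintKO livers were then at 1.365 for *Spp1*, 0.80 for *Sox9* and 0.72 for *Epcam*, with interactions of 1.25, 1.12 and 0.53. Without WT replicates 3 and 4, *Krt8* and *Krt18* were at -0.26 and -0.27, with interactions of -0.20 and -0.18. Leaving out single livers moved *Spp1* between -0.53 and 0.69 and *Epcam* between -0.97 and 0.44 for the genotypes at 24 hours, and between -0.65 and 0.58 and between -1.17 and 0.25 for the interaction.

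Same-numbered livers of different groups did not deviate together (correlations of -0.306 to 0.217, 2 of 34 livers closest to their own number), so the numbers are names. As a replicate block they left 6, 3, 2, 7 and 5 members called for WT at 24 against 0 and 24 against 6 hours, and SIRTintKO at 6 against 0, 24 against 0 and 24 against 6 hours.

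Over all genes, SIRTintKO against WT at 24 hours called 402, beside 0 in the groups alone, 168 with the block, 208 with the 10-count minimum, 870 without the fold threshold, 232 to 815 on leaving out 1 liver and 1440 and 1296 without either WT pair. The interaction at 24 hours called 1, beside 90 with DESeq2, 8 with every gene, 0 to 205 without 1 liver and 822, 650 and 126 without the WT pairs or SIRTintKO replicates 2 and 5. At 6 hours DESeq2 called 9 genes between genotypes and 2 for the interaction, and 6 between genotypes at 0 hours, where edgeR called 0. Between genotypes at 6 hours every gene with a count gave 2 and single livers 0 to 7. For WT at 24 against 0 hours the 2354 calls became 516 and 4777 without either WT pair. Without the fold threshold the counts of genes at 6 against 0, 24 against 0 and 24 against 6 hours (2332, 2354 and 1073 in WT, 2480, 3440 and 1588 in SIRTintKO livers) became 5604, 5113, 2468, 5758, 7520 and 4138, and with the 10-count minimum 1183, 1167, 570, 1268, 1664 and 720. For WT at 24 against 6 hours, the groups alone gave 406, single livers 661 to 1370 and WT replicates 1 and 2 alone 2889, and for WT at 24 against 0 hours single livers gave 1552 to 3117. At 14892122 counts or more per library, *Krt7*, *Krt19*, *Epcam* and *Afp* rest on few reads in untreated livers.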
